A study of Mus musculus with 6 samples.

Results

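The transcripts examined were 9 genes of the epicardium and of retinoid metabolism and signalling: Wt1, Tbx18, Tcf21, Aldh1a1, Aldh1a2, Rarb, Crabp1, Crabp2 and Dhrs3. They were taken as the probe sets whose annotation named exactly 1 gene symbol and that symbol was one of the 9, which gave 11 of 45101 probe sets, and where a gene had several, the one brightest on average over the 6 arrays stood for it. The RNA came from whole mouse hearts taken on embryonic day 16.5, in 3 wild-type (WT) samples and 3 samples labelled FOG-2R3K5A (mutant below). The embryos were siblings whose parents were double heterozygotes, and the strain background mixed C57/B6 with 129 S6 in every group. FOG-2, the product of Zfpm2, partners GATA factors in the heart, and R3K5A names substitutions near its N terminus that abolish recruitment of the NuRD repressor complex. The labels give neither the zygosity of the mutants nor whether a sample was 1 heart or several, so p-values measure the spread between these samples. A whole heart holds the epicardium as a thin outer layer beside muscle, vessels and fibroblasts, so fewer cells of a type and less RNA per cell cannot be told apart in any value below.

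The epicardium is the mesothelial cover of the heart. Cells that leave it become cardiac fibroblasts and coronary smooth muscle, and its transcription factors Wt1, Tbx18 and Tcf21 are used as markers of these cells and of their descendants. The epicardium is also known as a source of retinoic acid in the embryonic heart. Retinol is oxidised to retinaldehyde by alcohol and retinol dehydrogenases, and retinaldehyde is oxidised to retinoic acid by the retinaldehyde dehydrogenases, of which Aldh1a2 is the main embryonic enzyme and Aldh1a1 another. Dhrs3 encodes a reductase that turns retinaldehyde back into retinol. Crabp1 and Crabp2 encode proteins that bind retinoic acid in the cytoplasm, and Rarb encodes a nuclear retinoic acid receptor whose own transcription is a textbook target of the pathway.

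Of the 9 genes, 7 had a mean above the filter level (6.30 log2 units, the median of all probe sets), and 0 of these 7 differed between genotypes at an adjusted p under 0.05 by limma, while 2, Aldh1a1 and Aldh1a2, had an unadjusted p under 0.05. Over all 11113 genes tested, 1.76% were called, 1.39% higher and 0.369% lower in mutant hearts, and 14.7% had an unadjusted p under 0.05. The 3 epicardial transcription factors had differences of -0.11 to -0.06 log2 units (mutant minus WT) in their main probe sets. The retinaldehyde dehydrogenases lay on opposite sides of WT: Aldh1a1 was 2.06-fold brighter in the mean of the mutants, from a dim level, and Aldh1a2 1.17-fold dimmer. Rarb and Dhrs3 had differences of 0.10 and -0.00061 log2 units. Crabp1 and Crabp2 were not above the filter level on any array. The 7 differences had a median of -0.06, against -0.01 over all genes tested.

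The arrays had median intensities of 77.4 to 84.1. Pairs of arrays correlated at 0.982 to 0.986 within WT, 0.990 to 0.995 within mutants and 0.972 to 0.990 between genotypes. WT replicate 1 lay nearest to the mutants on the first principal component, and leaving it out raised the number of called genes from 196 to 451. The mean signal of the 18S RNA control probe sets was 969, 429 and 411 in WT replicates 1 to 3. In mutant replicates 1 to 3 it was 822, 631 and 1051. WT replicate 1 was thus nearer to the mutants in this signal too, and the part of this signal in the differences was not tested. Zfpm2, the gene that carries the mutation, read 10.07, 10.13 and 10.14 log2 units in WT replicates 1 to 3 and 10.59, 10.55 and 10.52 in mutants, and it rose by 0.44 (SE 0.06, adjusted p = 0.0134 by limma). The substitutions change amino acids, so this transcript level does not check the labels. The tissue label was checked on 6 cardiomyocyte markers, all above the filter level on 6 of 6 arrays. Of 8 lung and airway markers, 5 were above that level on 0 arrays, but Scgb3a2, an airway secretoglobin, read 9.03 and 11.36 in mutant replicates 1 and 3, against 4.87 in mutant replicate 2 and 4.81 to 5.40 in WT.

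**Figure D1:**
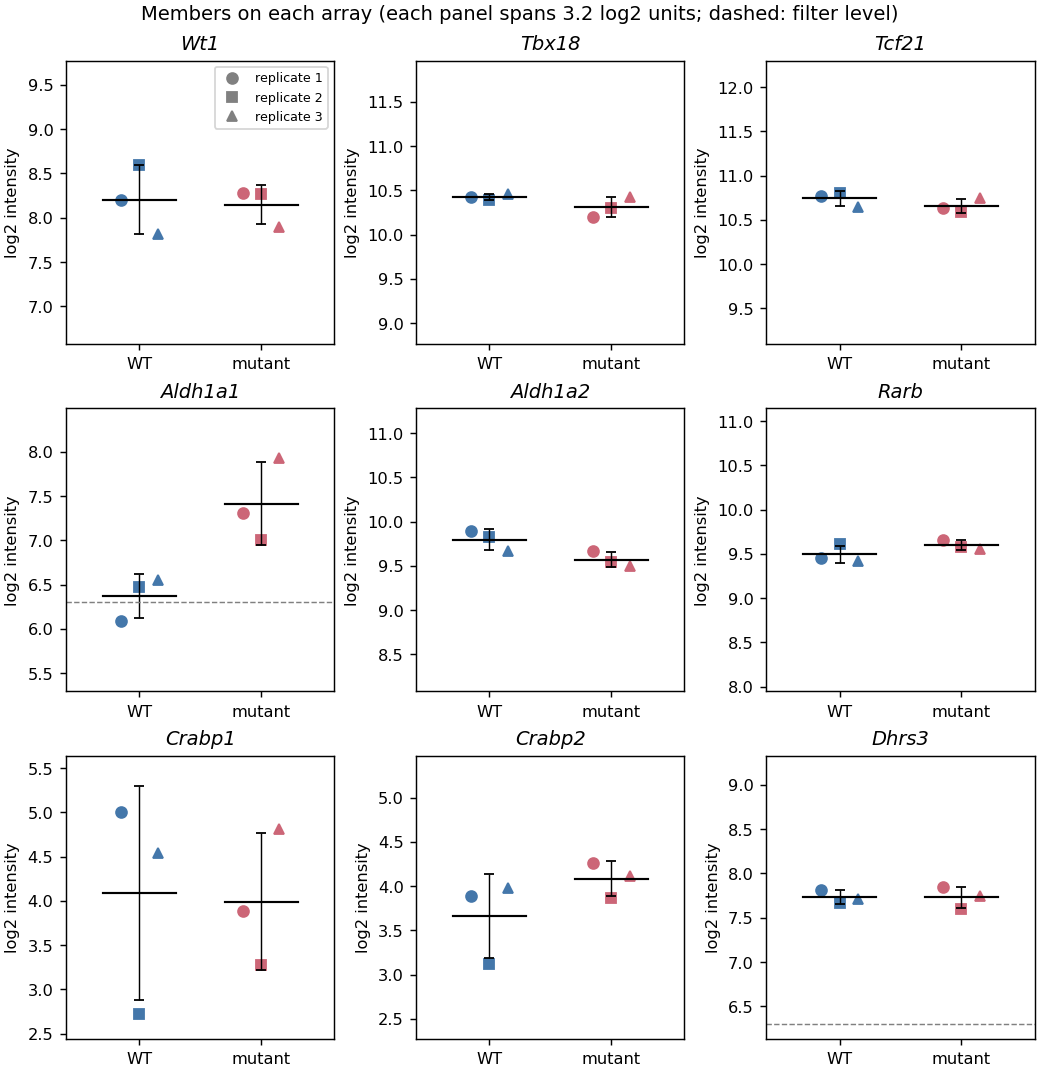
Log2 intensity of the 9 genes (y axis, 3.2 log2 units in every panel) in WT and mutant hearts (x axis), with the arrays as points, shapes for replicate numbers, the mean as a line and the SD as error bars; the dashed line is the filter level of 6.30. Only in the Aldh1a1 panel do the points of the genotypes fail to overlap, and the Crabp1 and Crabp2 points are all under the filter level.

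Wt1, a zinc finger factor required for the epicardium to form and to give rise to other cells, read 8.21, 8.60 and 7.81 log2 units in WT replicates 1 to 3 and 8.28, 8.27 and 7.89 in mutant replicates 1 to 3. The mutant values lay inside the WT range, with the highest and the lowest value both in WT. The means were 8.20 ± 0.39 (SD, n = 3) in WT and 8.15 ± 0.22 in mutants. The difference was -0.06 (SE 0.19, adjusted p = 0.919 by limma), and its 95% interval ran from a 0.711-fold to a 1.30-fold level in mutants, the widest interval of the 3 factors. The single Wt1 probe set has the suffix _s_at, which on these arrays marks probes that match more than 1 transcript, possibly of more than 1 gene.

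Tbx18, a T-box factor of the epicardium and of the sinus horns, read 10.42, 10.39 and 10.45 in WT and 10.20, 10.30 and 10.43 in mutant replicates 1 to 3. Mutant replicates 1 and 2 lay below every WT array, and mutant replicate 3 lay among them. The difference was -0.11 (SE 0.08, adjusted p = 0.521 by limma), with an interval of 0.822-fold to 1.04-fold. The second Tbx18 probe set read 8.73, 8.86 and 8.56 in WT and 8.50, 8.67 and 8.55 in mutants, a difference of -0.14 (SE 0.11, adjusted p = 0.577 in the limma fit over probe sets). Both probe sets had overlapping genotypes.

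Tcf21, a basic helix-loop-helix factor that epicardial cells need to become cardiac fibroblasts and that fibroblasts keep expressing, read 10.77, 10.81 and 10.65 in WT and 10.63, 10.59 and 10.75 in mutants. The mutant replicate 3 array lay within the WT range and the other two below it. The difference was -0.09 (SE 0.07, adjusted p = 0.612 by limma), with an interval of 0.842-fold to 1.06-fold. Its second probe set read 7.19, 7.11 and 6.94 in WT and 6.89, 6.85 and 6.99 in mutants, a difference of -0.16 (SE 0.12, adjusted p = 0.571 in the fit over probe sets). All 5 probe sets of the 3 transcription factors had negative differences and overlapping genotypes, but probe sets of 1 gene are not independent. Of all genes tested, 52.8% had negative differences. The sign of Wt1 turned in 7 of 20 alternatives. Of the probe sets in the fit over probe sets, 1.1% were called.

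Most of the surface and keratin genes examined for the epicardium and mesothelium stood higher on the same mutant arrays. Of 12 such markers, 7 rose and 0 fell by limma, where 1.39% of all genes tested were called higher. Differences were positive for 10 of the 12, while Podxl had -0.02 and Cldn15 -0.17, neither of them called. The 7 include Krt8 (1.42), Krt18 (1.54) and Krt19, which are keratins of simple epithelia and not surface genes. The summed intensity of the 12 was 4529 to 4737 in WT and 6731 to 7614 in mutants. One of the 7, Muc16, a mucin of mesothelium, passed the filter only through the mutants, with 0 of 3 WT arrays and 3 of 3 mutant arrays above the level. The summed intensity of 8 lung and airway markers was 228 to 370 in WT and 729, 234 and 3560 in mutant replicates 1 to 3. Its part in the values of the 12 markers was not tested. Krt19, a keratin of simple epithelia, rose by 0.93 (SE 0.09), Msln, a mesothelial surface protein, by 0.98 (SE 0.17) and Upk3b, a uroplakin, by 0.50 (SE 0.08), with a highest adjusted p of 0.0286 by limma among these 3. Upk1b, another uroplakin, had 0.59 (SE 0.18, adjusted p = 0.161 by limma). These keratin and mesothelial rises were known when the genes here were chosen, so they are set beside the transcription factors as values only. Whether the difference of the 12 markers is larger than that of the 3 factors was not tested. Of 8 fibroblast markers, 0 were called by limma, 3 had positive differences, and their summed intensity was 25896 to 28093 in WT and 26752 to 29070 in mutants.

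**Figure D2:**
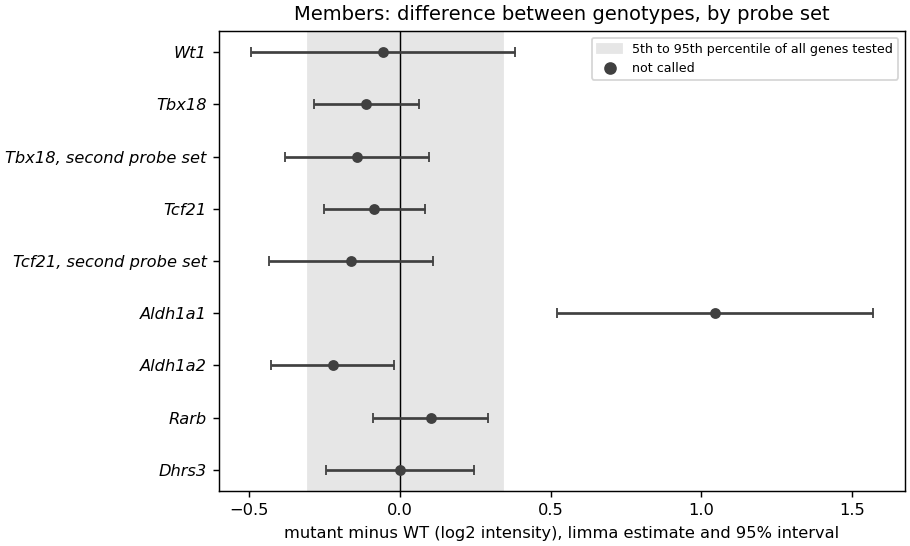
Difference between genotypes (x axis, mutant minus WT, log2 intensity) for the 9 probe sets above the filter level (y axis), as limma estimates with unadjusted 95% intervals from the fit over probe sets. The shaded band runs from the 5th to the 95th percentile of the differences of all genes tested, -0.30 to 0.34; the Aldh1a1 point lies to the right of it at 1.04, and the intervals of Aldh1a1 and Aldh1a2 do not cross 0.

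Aldh1a1 had the largest difference of the 9 genes. Its intensity was 68.2, 88.6 and 93.7 in WT replicates 1 to 3 and 159, 128 and 244 in mutant replicates 1 to 3, and the filter level was 78.9. The lowest mutant array was above the highest WT array, while WT replicate 1 was under the filter level. Genotypes that did not overlap with the mutants higher were found for 11.5% of all genes tested, with the mutants lower for 9.76%, and for 21.2% in all. The means were 6.37 ± 0.24 log2 units (SD, n = 3) in WT and 7.42 ± 0.47 in mutants. The difference was 1.04 (SE 0.23, 2.06-fold, interval 1.43-fold to 2.97-fold), and it did not pass over all genes (adjusted p = 0.0660 by limma). The exact permutation test over the 6 arrays gave p = 0.1, the smallest that 3 against 3 allows. The adjusted p by limma was under the threshold after quantile normalization (0.0465), after median centring (0.0375) and without mutant replicate 2 (0.0493, difference 1.25). It was 0.279 with the Xist level as a covariate.

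The order of the mutant arrays in Aldh1a1, replicate 3 highest and replicate 2 lowest, was also that of Scgb3a2. The summed intensity of the 8 lung and airway markers, given above, had that order too, but Scgb3a2 is part of that sum. Positive differences were found for 5 of the 8. Among them were Scgb1a1, Sftpa1 and Cldn18, which were under the filter level on every array. Sftpc, the surfactant protein of alveolar cells, read 9.43 in mutant replicate 3 and 5.80 to 6.53 on the other arrays. Nkx2-1, a transcription factor found in lung epithelium, was under the filter level on every array (2.97 at most, in WT replicate 3). Nothing can be read from values so near the floor. Mutant replicate 2, whose lung marker sum lay within the WT range, had an Aldh1a1 intensity of 128, above the WT arrays. Without mutant replicates 1 and 3 the difference was 0.63 (SE 0.28, adjusted p = 0.999 by limma), with the lone mutant array assumed to vary like the WT arrays. With the Scgb3a2 level as a covariate it was 0.57 (SE 0.22, adjusted p = 0.508 by limma). The sum of the epicardial surface and keratin markers was 7614, 6731 and 6928 in mutant replicates 1 to 3 and thus highest in replicate 1. Beyond the fits given here, the part that cells of these kinds have in the Aldh1a1 values was not tested.

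Aldh1a2, known as Raldh2, read 9.89, 9.83 and 9.66 log2 units in WT replicates 1 to 3 and 9.67, 9.55 and 9.49 in mutants. Mutant replicates 2 and 3 were below every WT array, and mutant replicate 1 was level with WT replicate 3 within 0.01. The means were 9.79 ± 0.12 in WT and 9.57 ± 0.09 in mutants. The difference was -0.22 (SE 0.09, interval 0.745-fold to 0.984-fold), adjusted p = 0.284 by limma. It ranged from -0.29 to -0.17 over the alternatives run and passed under 0 of them (adjusted p = 0.177 to 0.999).

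Aldh1a1 has 2 start sites in the RefSeq promoter table, and Aldh1a2 has 1. Their upstream bases are shown because these genes had the largest positive and negative differences among the members. Capitals mark, on either strand, retinoid cores (AGGTCA, its variant AGTTCA, the variant GGGTCA or the variant GGTTCA), letters of GATA sites (AGATAA, its variant AGATAG, the variant TGATAA or the variant TGATAG) or the T-box letters AGGTGTGA. They are RefSeq's, in build GRCm38.p6, 250 bases before each start site. The windows are chr19:20492333-20492582 and chr19:20601718-20601967 for Aldh1a1 and chr9:71215539-71215788 for Aldh1a2, all on the plus strand.

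Aldh1a1, first window: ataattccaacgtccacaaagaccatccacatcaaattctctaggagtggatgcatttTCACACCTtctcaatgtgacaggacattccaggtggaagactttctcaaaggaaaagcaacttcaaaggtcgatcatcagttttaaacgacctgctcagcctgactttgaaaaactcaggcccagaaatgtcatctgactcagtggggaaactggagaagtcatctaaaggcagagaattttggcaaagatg

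Aldh1a1, second window: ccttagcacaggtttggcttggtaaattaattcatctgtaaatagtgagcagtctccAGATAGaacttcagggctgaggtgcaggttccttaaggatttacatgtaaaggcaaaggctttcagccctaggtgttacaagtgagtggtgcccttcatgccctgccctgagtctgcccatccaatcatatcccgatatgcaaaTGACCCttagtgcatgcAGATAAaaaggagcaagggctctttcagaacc

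Aldh1a2: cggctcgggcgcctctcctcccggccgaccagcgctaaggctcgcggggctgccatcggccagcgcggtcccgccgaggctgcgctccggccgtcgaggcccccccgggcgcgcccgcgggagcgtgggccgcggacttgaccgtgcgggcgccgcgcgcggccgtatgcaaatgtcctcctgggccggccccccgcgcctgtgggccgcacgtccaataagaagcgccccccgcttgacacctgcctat

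The second Aldh1a1 window holds GATA letters 193 to 188 and 32 to 27 bases before the start site and a core 49 to 44 bases before it. The first holds the T-box letters, 192 to 185 bases before its start site, found in 1.28% of all 32851 windows of 300 bases in the table, and GATA letters after its start site. GATA letters stand in 29.8% of all windows, and they matched in 1 other member, Tcf21, 31 to 26 bases before its start site. The bases of the Aldh1a2 window are 77.6% G or C, and none of these letters were found in it, which says only that they are not in these bases. In all 7 of the 9 genes had a window; the E-box letters CAGCTG (16.3% of windows) and the WT1 and EGR letters GCGTGGGNG (1.90%) were found in 0 windows of these 7 genes. A match is not a bound site.

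Dhrs3 read 7.82, 7.66 and 7.71 in WT and 7.85, 7.60 and 7.74 in mutants. The highest and the lowest value were both in mutants, and the difference was -0.00061 (SE 0.11, interval 0.842-fold to 1.19-fold, adjusted p = 0.998 by limma). Its sign turned with quantile normalization (0.027) and with median centring (0.041).

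Crabp1 read 5.01, 2.72 and 4.54 in WT and 3.89, 3.27 and 4.81 in mutants, and Crabp2 3.89, 3.12 and 3.98 in WT and 4.26, 3.87 and 4.12 in mutants. These values were under the filter level on 6 of 6 arrays for both genes, and no fold is given. The genotypes overlapped for both. In a fit with no filter the adjusted p was 0.968 for Crabp1 and 0.619 for Crabp2 by limma.

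Rarb is shown with its promoter because it carries the direct repeat that defines a retinoic acid response element in textbooks. The window of 250 bases before the start site is from RefSeq (GRCm38.p6, chr14:16575477-16575726, minus strand), with the matched letters in capitals:

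Rarb: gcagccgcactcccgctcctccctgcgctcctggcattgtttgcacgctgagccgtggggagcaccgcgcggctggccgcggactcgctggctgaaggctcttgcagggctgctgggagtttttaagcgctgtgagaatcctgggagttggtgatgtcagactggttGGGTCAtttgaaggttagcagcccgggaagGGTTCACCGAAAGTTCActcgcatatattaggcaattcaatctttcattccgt

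The repeat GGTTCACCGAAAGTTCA lies 53 to 37 bases before the start site, as core elements with 5 bases between them, and a further GGGTCA lies 83 to 78 bases before it. The letters searched, on both strands, were direct repeats with 1, 2 or 5 bases between any pair of the cores spelled out for Aldh1a1. Repeats with 1 base between stood in 0.222% of windows and with 2 bases in 0.268%. Of 32851 promoter windows of 300 bases in the table, 32 (0.0974%) held a repeat with 5 bases between, and 43.7% held at least 1 core. Rarb read 9.45, 9.61 and 9.42 log2 units in WT replicates 1 to 3 and 9.66, 9.58 and 9.55 in mutants. The WT replicate 2 array lay among the mutants and the other two WT arrays below them. The difference was 0.10 (SE 0.08, interval 0.943-fold to 1.22-fold, adjusted p = 0.595 by limma).

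The list of other retinoid pathway genes held 52, of which 46 had a probe set of their own symbol and 24 were above the filter level. Of these 24, 2 rose and 0 fell by limma, where 1.39% of all genes tested were called higher and 0.369% lower. Negative differences were found for 15 of the 24, against 52.8% of all genes, and the median was -0.03, against -0.01. With median centring 13 of 24 were positive. Adh1, an alcohol dehydrogenase that oxidises retinol among other alcohols, read 7.50, 7.15 and 7.53 in WT replicates 1 to 3 and 8.38, 8.04 and 8.75 in mutants. It rose by 1.00 (SE 0.18, 2.00-fold, adjusted p = 0.0343 by limma), and its mutant arrays had the same order as those of Aldh1a1. Rarres2, which encodes the secreted protein chemerin and is named for its induction by retinoids, read 7.98, 8.48 and 8.50 in WT and 9.34, 8.99 and 9.41 in mutants. It rose by 0.92 (SE 0.16, 1.90-fold, adjusted p = 0.0294 by limma).

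The other Rarres2 probe set above the filter gave 0.88, and like the main one it has the suffix _s_at described for Wt1. One under the filter level on all arrays gave -0.14. Both calls ended without mutant replicate 1 or 3 or WT replicate 2 or 3, each left out singly (adjusted p = 0.0512 to 0.147 for both genes), and under both lung marker covariates. With the Scgb3a2 covariate, which was added after the data were seen, the differences were 0.63 for Adh1 and 0.68 for Rarres2. The lung marker values given beside Aldh1a1 hold for these genes too. Beyond these covariate fits, the part of lung cells was not tested. The fits cannot separate it from genotype, because Scgb3a2 was high only on mutant arrays.

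Next by p were Tgm2, a transglutaminase induced by retinoic acid, at 0.24 (adjusted p = 0.115) and Fabp5, a fatty acid binding protein that also carries retinoic acid, at 0.12 (adjusted p = 0.209), both with genotypes that did not overlap and neither called by limma. The genotypes failed to overlap for 5 of the 24 retinoid genes tested, near the 21.2% of all genes tested. The nuclear receptors gave 0.10 for Rarg, -0.34 for Rxra (SE 0.16, adjusted p = 0.349 by limma) and -0.08 for Rxrb. Rara had 6.36 in WT and 6.19 in mutants, with 1 of 6 arrays above the filter level, and was not tested. Rdh10, the retinol dehydrogenase of the embryo, had 0.06, and Cyp26b1, which breaks retinoic acid down, -0.12. The genes under the filter level, 22 in all, included Aldh1a3, the third retinaldehyde dehydrogenase, at 5.57 in WT and 5.60 in mutants, and Stra6, the membrane receptor of the retinol carrier, listed at the floor on 3 of 6 arrays.

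**Figure D3:**
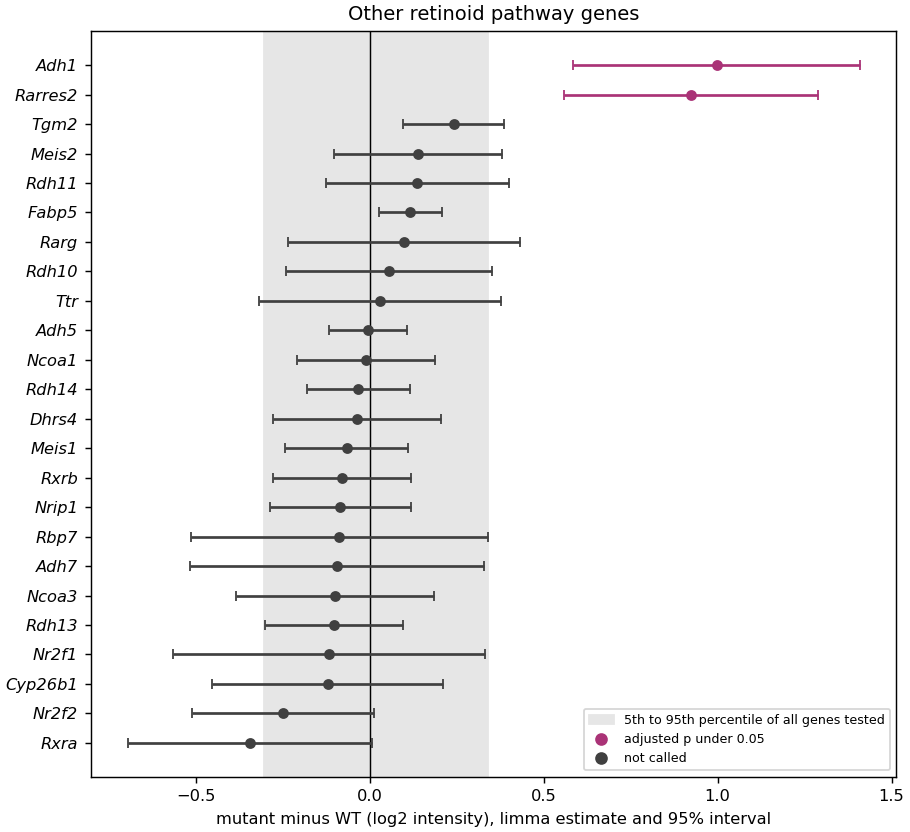
Difference between genotypes (x axis, mutant minus WT, log2 intensity) for the 24 other retinoid pathway genes tested (y axis), as limma estimates with unadjusted 95% intervals; the shaded band is the 5th to 95th percentile of all genes tested. Adh1 at 1.00 and Rarres2 at 0.92 are the 2 called genes, and the points of the other 22 lie between -0.34 and 0.24.

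The list of other epicardial regulators held 41 transcription factors and signals, of which 34 were tested. Of these 34, 2 fell and 0 rose by limma, where 0.369% of all genes tested were called lower and 1.39% higher. An unadjusted p under 0.05 was found for 8 of the 34, against 14.7% of all genes, and the median difference was 0.04, against -0.01. Fgf9, an epicardial and endocardial growth factor for myocardium, read 7.93, 7.98 and 8.01 in WT replicates 1 to 3 and 7.50, 7.47 and 7.19 in mutants, and it fell by 0.59 (SE 0.12, adjusted p = 0.0440 by limma), with a second probe set at -0.54. Tbx20, a T-box factor of muscle and endocardium more than of epicardium, read 11.82, 12.05 and 11.93 in WT and 11.44, 11.56 and 11.66 in mutants, and it fell by 0.38 (SE 0.08, adjusted p = 0.0461 by limma), with 2 further probe sets at -0.38 and -0.29. Both calls lay near the threshold and ended in 5 of the 6 fits without 1 array, all but that without WT replicate 1. In the limma fit over probe sets, the main probe sets had adjusted p = 0.0524 for Fgf9 and 0.0599 for Tbx20. Neither gene was called in that fit by any of its probe sets.

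Cxcl12, a chemokine, had 0.29 in its main probe set and -0.29 in the second. Gata6, a GATA factor of heart and epicardium, had -0.50 (SE 0.15, adjusted p = 0.173 by limma), with means of 11.22 ± 0.32 in WT and 10.72 ± 0.21 in mutants and every mutant array below every WT array, and its other probe sets had -0.61 and -0.32. Gata4, another FOG-2 partner, had -0.31 (adjusted p = 0.520 by limma) with overlapping genotypes. The genotypes failed to overlap for 8 of the 34 regulators tested, 4 of them lower in mutants. Over all genes tested they did so for 21.2%, and for 9.76% with the mutants lower. Bnc1, a basonuclin of mesothelium, read 8.55 in WT replicate 1, 7.64 and 7.82 in the other WT arrays and 8.41, 8.41 and 8.28 in mutants, a difference of 0.36 (SE 0.21, adjusted p = 0.444 by limma). Without WT replicate 1 it was 0.64 (adjusted p = 0.0239 by limma), and 4 of the 34 regulators were then called higher. These were Bnc1, the axon guidance genes Sema3d and Slit2, and Cxcl12. In that fit 277 of all 11113 genes tested were called higher, against 155 with all arrays. That fit sets WT replicates 2 and 3, the arrays with the lowest 18S control signal, against the mutants. With all arrays Sema3d had 0.34, Slit2 0.42 and Cxcl12 0.29, none of them called by limma. The differences of Wt1, Tbx18 and Tcf21 without WT replicate 1 were -0.06, -0.11 and -0.07.

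**Figure D4:**
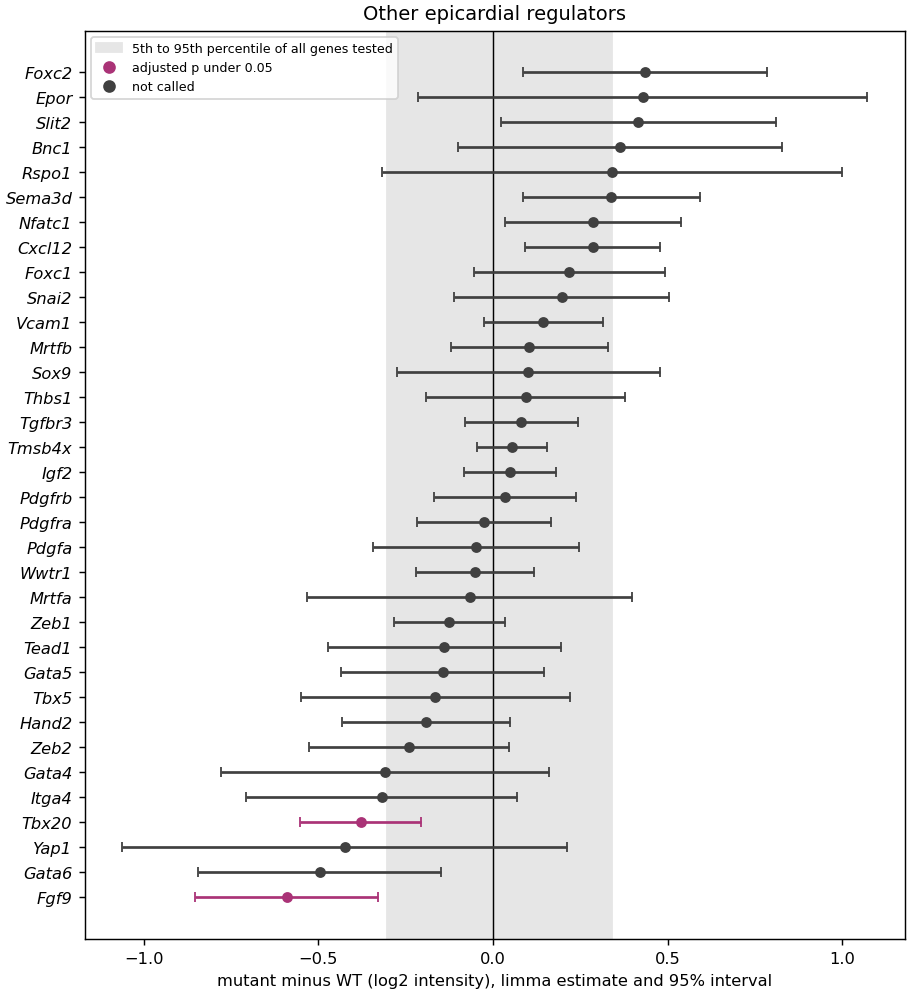
Difference between genotypes (x axis, mutant minus WT, log2 intensity) for the 34 other epicardial regulators tested (y axis), as limma estimates with unadjusted 95% intervals; the shaded band is the 5th to 95th percentile of all genes tested. Fgf9 at -0.59 and Tbx20 at -0.38 are the 2 called genes.

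**Figure D5:**
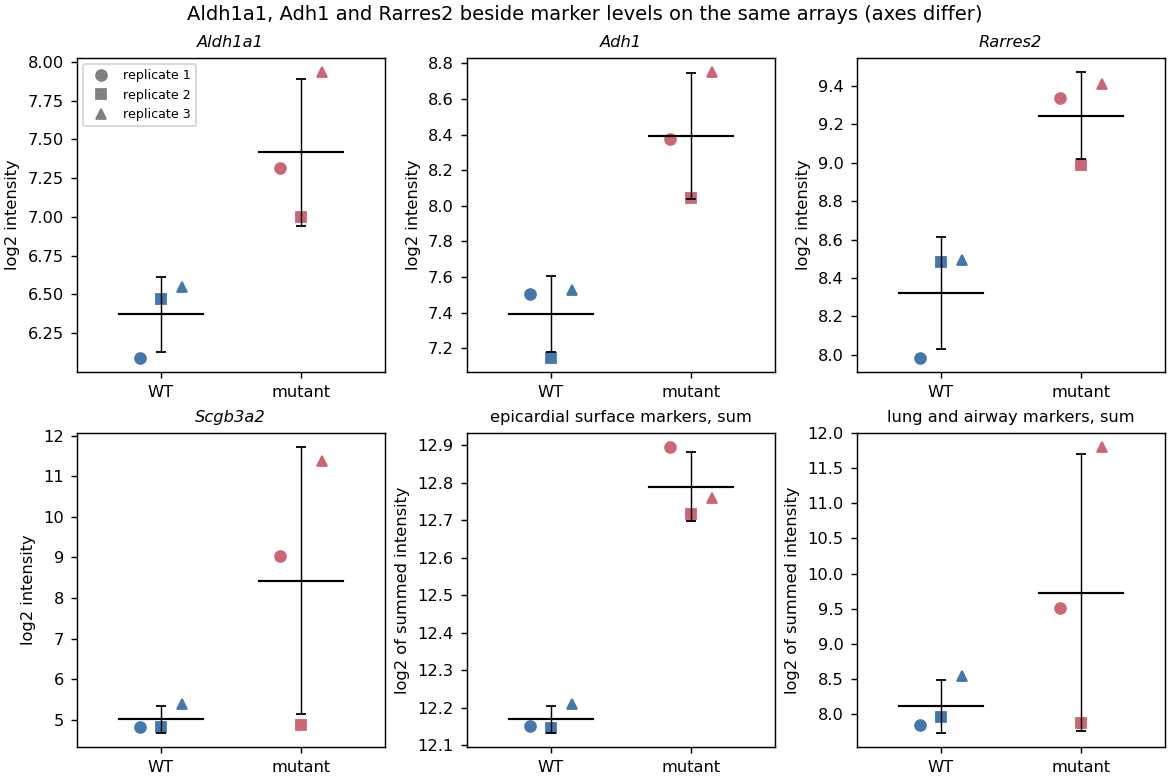
Log2 intensity of Aldh1a1, Adh1, Rarres2 and Scgb3a2 (y axes, which differ in range) in WT and mutant hearts (x axis). The other panels give log2 of the summed intensity of 12 epicardial surface and keratin markers and of 8 lung and airway markers. Points are arrays, shapes replicate numbers, lines means and error bars SDs. Mutant replicate 3 is highest and mutant replicate 2 lowest of the mutants in the first 4 panels and in the lung sum. The lung sum includes Scgb3a2. The epicardial sum is highest in mutant replicate 1.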

How the data were processed

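Total RNA (3 µg a sample, Trizol extraction, per the labels' protocols) was hybridised to 1-colour Affymetrix mouse arrays, 1 array for each of 6 samples. The authors deposited one linear intensity per probe set, and the array medians lay within 0.12 log2 units of each other. How these intensities were computed and normalized is not given in the sources used here. Precision is limited by there being 6 arrays.

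Intensities were floored at 1 and log2-transformed, and 34945 probe sets with 1 symbol gave 18193 genes. The filter level was the median over probe sets, controls left out, of their mean log2 value (6.30, intensity 78.9), and 11113 genes lay above it. Genotypes were compared in limma 3.58.1 (R 4.3.3; lmFit, eBayes with an intensity trend, two-sided), with Benjamini-Hochberg adjustment over all genes and a call at an adjusted p under 0.05. A fit over probe sets gave the other probe sets. The fit was tested on simulated data. Differences are mutant minus WT with limma's SE.

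The members, lists and tests were chosen with earlier results of these data known. The text names all members, the called genes and the 4 of each list with the smallest p. It also names preset receptors and regulators and the 3 genes most like each member. Slit2, Sema3d, Krt8, Krt18, Krt19, Muc16, Podxl, Cldn15, Stra6, Aldh1a3, Sftpc, Scgb1a1, Sftpa1, Cldn18, Nkx2-1 and Rxrb were named after their values were seen. Promoter letters are RefSeq's (GRCm38.p6). Alternatives covered normalization, offset, filter, probe set choice, variance model, threshold, replicate block, Xist covariate and each array left out. A further fit left out mutant replicates 1 and 3 together, the arrays with high Scgb3a2. The 2 lung covariates were added after seeing the data. Protein comparisons planned for the members were not run, since no protein sequences were used here.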

Additional observations from a re-analysis of the deposited data

How the results depend on the processing

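Tbx18, Tcf21, Aldh1a2 and Rarb kept their direction and stayed uncalled in all 20 alternatives. Aldh1a1 kept its direction in all 19 that tested it (0.57 to 1.25) and was called in 5: quantile normalization (1.08), median centring (1.09), a threshold of 0.1 (adjusted p = 0.0660), the replicate block (adjusted p = 0.0376) and without mutant replicate 2 (1.25). The count of members called higher was then 1 in place of 0; the stricter filter left Aldh1a1 out. The sign of Wt1 turned with array quality weights (0.13), the Xist covariate (0.054), without mutant replicates 1 and 3 (0.067) and with the Scgb3a2 (0.15) and lung sum (0.15) covariates, and it was -0.25 to 0.14 without single arrays. That of Dhrs3 turned with quantile normalization (0.027), median centring (0.041) and array quality weights (0.0032), and it was -0.059 to 0.063 without single arrays. The causes were not tested.

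The count of other retinoid genes called higher was 2, but 0 with no filter, no intensity trend, the Xist covariate, either lung covariate and without mutant replicates 1 and 3, 1 with the mean over probe sets (where Rarres2 had 0.56), and 0 to 2 without single arrays. Array quality weights gave 3. The count of epicardial regulators called lower was 2, but 0 with median centring, no filter, the mean over probe sets, the Xist covariate, either lung covariate and without mutant replicates 1 and 3, 1 with no intensity trend or the replicate block, and 0 to 2 without single arrays. Those called higher were 0 to 4 without single arrays. Over all genes the calls ran from 5 (without mutant replicates 1 and 3) to 451 (without WT replicate 1), against 196; they were 81 with no filter, 119 without the trend, 125 with the mean over probe sets, 429 with array quality weights, 369 at 0.1 and 43 with the Xist covariate. The replicate block gave 234 calls. Deviations of same-numbered arrays correlated at -0.06, 0.13 and 0.41. WT replicate 1 was closest to mutant replicate 2, and WT replicate 3 to mutant replicate 3. Whether the numbers pair the samples cannot be told from these values, since deviations from a mean of 3 arrays are not independent. Dim signal limits Aldh1a1, and Crabp1 and Crabp2 altogether.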

Other observations

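The genes whose values over the 6 arrays were most like those of a member are given with Pearson's r over 6 arrays, across 11113 tested genes, as a description; all points share the same 6 arrays, and with so few arrays high values are common. For Aldh1a1 they were Enox1 (0.990), Npy1r (0.985) and Slc9a7 (0.983), with 36 genes over 0.95, and their own differences between genotypes were 0.94, 0.66 and 0.40 log2 units, none of them called by limma (adjusted p = 0.0578, 0.0896 and 0.107). For Aldh1a2 they were Pole4 (0.987), Sp3 (0.983) and Wdr36 (0.976), with 21 genes over 0.95. For Rarb they were Abhd5 (0.995), Gpx4 (0.992) and Fam174b (0.989).

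For Wt1 the most alike were Ywhae, Ssu72 and Deaf1 (0.993 to 0.992), with 95 genes over 0.95, the most among the 7 members tested. For Tbx18 they were Mbtd1, Acsl5 and Txnrd1 (0.996 to 0.992), and for Tcf21 Syncrip, Hivep1 and Arrdc3 (0.964 to 0.956), with 7 genes over 0.95. For Dhrs3 they were Mansc1, Rps6 and Gpd2 (0.956 to 0.943), with 1 gene over 0.95. The lists of the 3 epicardial factors had 0 genes in common among these leading 3.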
